A study of Mus musculus with 6 samples.

Results

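The genes described here encode the matrix of perineuronal nets: the lecticans Acan, Bcan, Ncan and Vcan, the link proteins Hapln1, Hapln2 and Hapln4, the cross-linker Tnr, the hyaluronan synthase Has3 and the receptor phosphatase Ptprz1. They were chosen by name for their known roles, by a rule that uses no measured value, though with earlier results of these data known. These 10 genes are 10 of the 38355 listed and 10 of the 17120 with enough counts for a test. Polyadenylated RNA of whole cortical hemispheres of C57BL/6 wild-type mice, an inbred strain, was sequenced at 6 months (3 brains) and at 16 months (3 brains). No allele, transgene or treatment is given for either age. One label, on housing, puts the younger age at 3 months. The other labels and the study's methods put it at 6 months, which is used here. The study compared the ages to find genes that matter for aging of the cortex and its inhibitory neurons.

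Perineuronal nets are lattices of extracellular matrix around the cell body and proximal dendrites of certain neurons, in the cortex above all the fast-spiking interneurons that make parvalbumin. Hyaluronan, a long sugar chain spun out by synthases in the cell membrane, is the backbone. Lecticans, proteins that carry chondroitin sulfate chains, bind hyaluronan with their N-terminal end, link proteins lock that bond, and tenascin R ties the other ends of the lecticans together. The same molecules also form the looser matrix between cells and the matrix of the node of Ranvier, and neurons, astrocytes and cells of the oligodendrocyte lineage all contribute to it. In bulk tissue, fewer cells of a type and less RNA per cell cannot be told apart.

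The samples held between 29797253 and 46519280 counts on genes, so that 3 counts, taken as the floor of detection, correspond to 0.0640 to 0.100 counts per 1000000 (CPM). Markers of the labelled tissue were present at both ages, and 0 of 69 cell type and region markers were at 0 in any sample. The 16-month samples replicate 1 and replicate 2 stood apart from the other 4 by base composition. Across genes, the deviation of a sample from the mean of its age correlated with the GC content of the transcript with r = 0.588 in replicate 1 and r = -0.582 in replicate 2, against -0.130 to 0.160 in the others. These are descriptions over genes of 1 library each, and the fold changes of the 10 genes are given with and without each of them.

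In the mouse genome (build GRCm38), each lectican gene lies next to a link protein gene with 0 protein-coding genes between them. Acan (chromosome 7, 79053483 to 79115099, plus strand) ends 2 bases before the tail of Hapln3 (79115102 to 79131018, minus strand), the link protein gene that is not among the 10. Ncan (chromosome 8, 70093085 to 70120873, minus strand) and Hapln4 (70083457 to 70090862, plus strand) also face each other tail to tail, with 2222 bases between them. Vcan (chromosome 13, 89655312 to 89742509, minus strand) and Hapln1 (89539796 to 89611652, plus strand) lie tail to tail with 43659 bases between them. Bcan (chromosome 3, 87987531 to 88000230) and Hapln2 (88021750 to 88027583) are both on the minus strand, 21519 bases apart. Exonic overlap with other genes was found for 2 of the 10 genes. The overlap was summed over all overlapping gene entries, so a base shared with several entries counts for each. For Tnr (chromosome 1, 159523769 to 159931729, plus strand) the sum was 443 bases, over Gm37731, Gm10530 and the antisense gene Gm38039. For Has3 (chromosome 8, 106870242 to 106884566, plus strand) it was 704 bases, over the entries of Chtf8 on the opposite strand. The strand setting of the counting is not stated, so reads in these stretches cannot be assigned with certainty. Ptprz1 (chromosome 6, 22875502 to 23052916, plus strand) overlaps no other gene.

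All 10 genes were detected far above the floor in all samples, but their levels differed widely. Levels were compared between genes as counts per 1000 exonic bases and 1000000 counts, called the level per length below. At 6 months Bcan, the short lectican of the adult brain, was highest at 49.6 ± 1.72 (SD, n = 3). Hapln4 at 29.3 ± 1.07 and Ncan, the lectican neurocan, at 29.0 ± 1.44 followed, and the samples of these neighbours overlapped. Ptprz1 stood at 19.1 ± 0.213, Hapln2 at 15.6 ± 0.578, Hapln1 at 6.88 ± 0.274 and Tnr at 5.51 ± 0.101. Vcan at 2.32 ± 0.0891, Has3 at 0.681 ± 0.0558 and Acan at 0.547 ± 0.0205 closed the order. Acan encodes aggrecan, the lectican most closely tied to the nets themselves, and it lay at the 16.6th percentile of all tested genes, whereas Bcan lay at the 95.4th. Apart from Hapln4 and Ncan, no 2 neighbours in the order overlapped at 6 months.

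At 16 months the order was the same except that Ncan, at 34.7 ± 3.14, stood before Hapln4, at 30.7 ± 3.78, and their samples overlapped again. Hapln1 at 7.53 ± 1.35 and Tnr at 6.81 ± 0.451 then overlapped too. Bcan at 51.6 ± 7.21 remained first and Acan at 0.696 ± 0.0201 last. The order depends on which exons are counted as the length of a gene. With the longest transcript in place of all exons, Ptprz1, which also has a short isoform, moved from rank 4 to rank 2 at 6 months, at 33.8, and 7 of the 10 genes kept their rank.

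**Figure D1:**
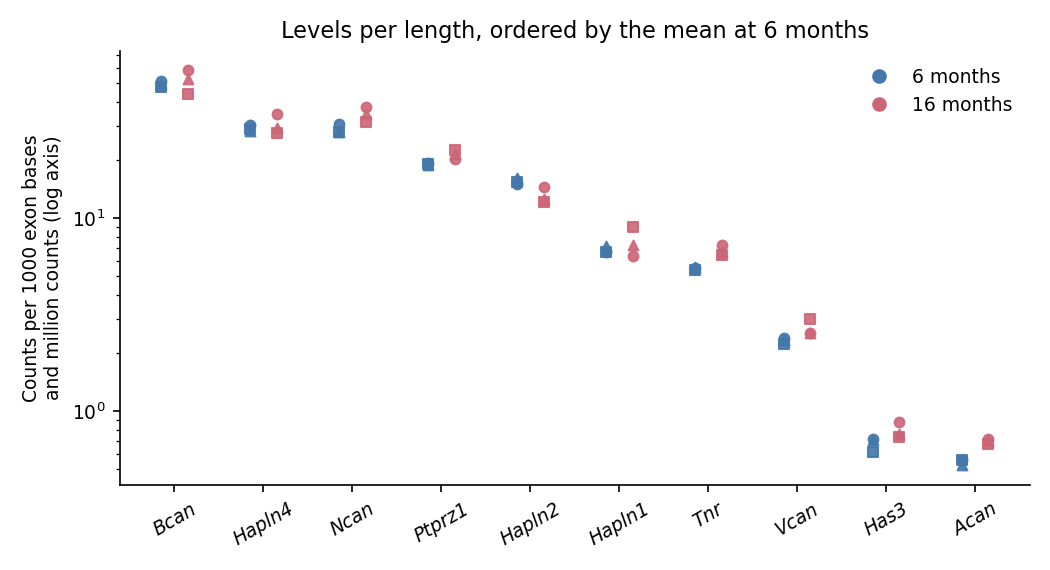
Level per length (counts per 1000 exonic bases and 1000000 counts, log axis) of each gene, ordered by its mean at 6 months. Points are single samples, blue for 6 and red for 16 months. Bcan leads at 49.6 and Acan is lowest at 0.547 at 6 months, and the order is nearly the same at 16 months.

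Between 6 and 16 months, 1 of the 10 genes passed the test. Tnr was 23.6% higher at 16 months, and 0 genes were lower past the threshold (edgeR quasi-likelihood test, Benjamini-Hochberg adjusted p under 0.05). Over all tested genes 1.67% passed. By sign alone, 9 of the 10 log2 fold changes were positive and 1, that of Hapln2, was negative. Of the 17120 tested genes, 8619 were positive. The median was 0.19 for the 10 genes against 0.0014 over all tested genes. In 6 of the 10 genes the 3 samples of 16 months all lay above the 3 of 6 months, which was so for 12.2% of all tested genes. In 1 gene, Hapln2, they all lay below, which was so for 11.5% of all tested genes. Ages that do not overlap were found in 7 of the 10 genes and in 23.7% of all genes in either direction. The genes share samples and some share cell types, so these counts are a description.

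**Figure D2:**
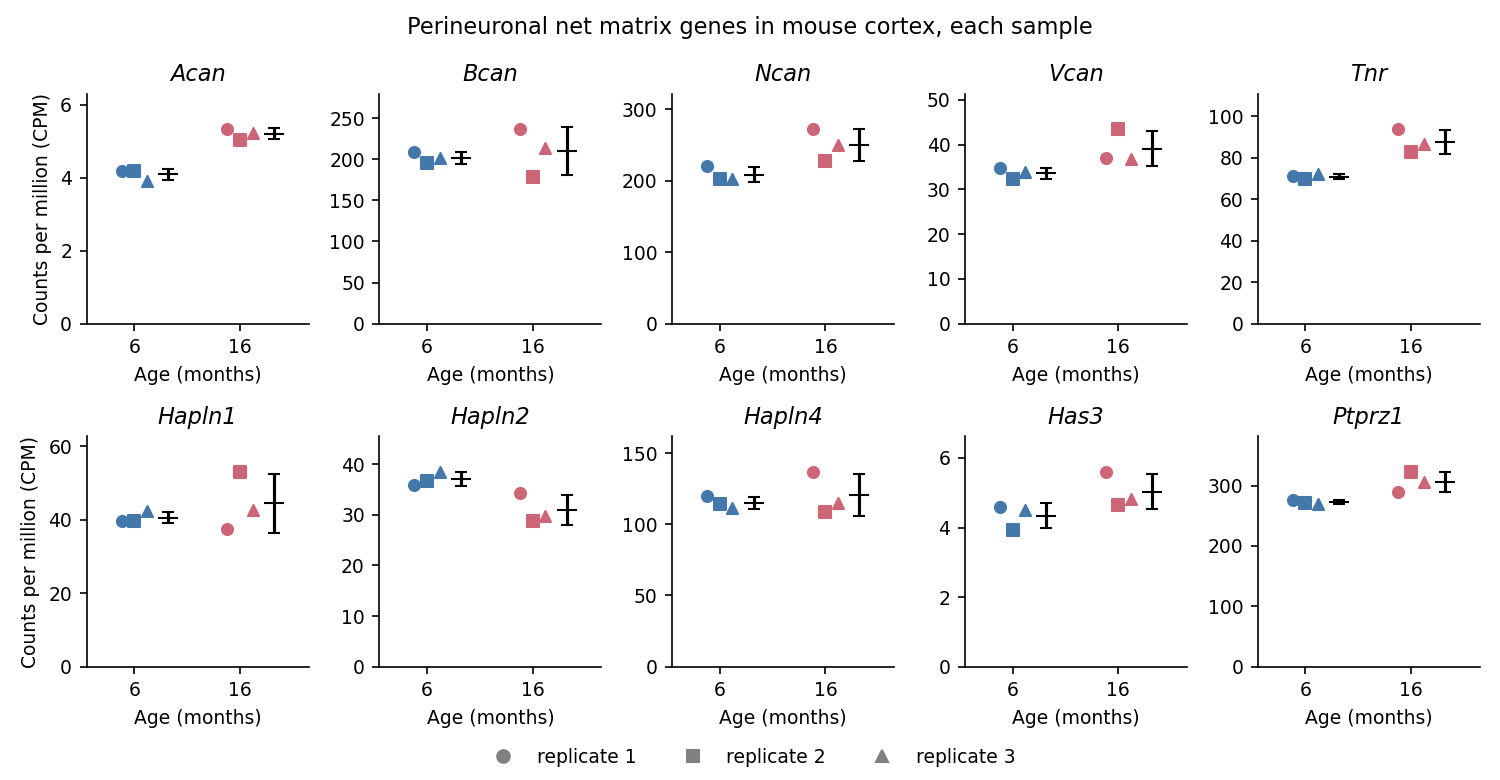
CPM of each of the 10 genes in each sample against age in months, with circles, squares and triangles for replicates 1 to 3 and black bars for the mean ± SD of 3 samples. Each axis starts at 0. The ages do not overlap for Acan, Ncan, Vcan, Tnr, Hapln2, Has3 and Ptprz1, and Hapln2 is the gene in which 16 months lies lower.

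Tnr encodes tenascin R, which is made mainly by oligodendrocytes and some neurons and clusters lecticans through their C-terminal domains. It measured 71.0, 69.6 and 72.2 CPM in replicates 1 to 3 at 6 months and 94.0, 82.6 and 86.4 CPM at 16 months. The ages did not overlap, and the highest 6-month sample lay 10.5 CPM under the lowest 16-month sample. The means were 70.9 ± 1.30 and 87.7 ± 5.80 CPM (SD, n = 3), or 0.31 higher on the log2 scale at 16 months (SE 0.0594, 95% interval 0.173 to 0.438, edgeR adjusted p = 0.0342). Tnr ranked 224th of all tested genes by p. The call was lost, at log2 fold changes of 0.29 to 0.32, when any sample of 6 months or replicate 3 of 16 months was left out (adjusted p 0.174 to 0.209), and kept without 16-month replicate 1 (log2 0.25, adjusted p = 0.00700) or replicate 2 (log2 0.35, adjusted p = 0.00349).

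Among the lecticans, Acan, Ncan and Vcan were higher at 16 months without overlap but did not pass the test. Acan, at low counts of 125 to 196 per sample, measured 4.18, 4.17 and 3.91 CPM at 6 months and 5.34, 5.04 and 5.21 CPM at 16 months. Its 16-month samples lay close together and clear of the younger ones. The log2 fold change of 0.35 (SE 0.0862, interval 0.156 to 0.541) was the largest of the 10 genes, with an adjusted p of 0.0800 in edgeR. It was 0.33 without 16-month replicate 1 and 0.37 without replicate 2.

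Ncan encodes neurocan, which is abundant in the juvenile brain and persists in the adult. It measured 220.4, 202.6 and 202.3 CPM at 6 months and 272.6, 227.3 and 249.8 CPM at 16 months. The lowest older sample lay 6.90 CPM above the highest younger one. Its log2 fold change was 0.26 (SE 0.0714, interval 0.102 to 0.421, edgeR adjusted p = 0.102), 0.19 without 16-month replicate 1 and 0.32 without replicate 2.

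Vcan encodes versican, a large lectican with several splice forms that occurs at nodes of Ranvier and in oligodendrocyte precursors. It measured 34.8, 32.2 and 33.8 CPM at 6 months and 37.0, 43.6 and 36.7 CPM at 16 months. Replicate 2 stood above the other 16-month samples. Over all samples the log2 fold change was 0.22 (SE 0.0752, interval 0.0476 to 0.383, edgeR adjusted p = 0.185). Without that replicate it was 0.13, and without replicate 1 it was 0.25.

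Bcan, the brevican gene, measured 208.8, 194.9 and 201.1 CPM at 6 months and 237.1, 178.8 and 213.0 CPM at 16 months. The older samples lay on both sides of the younger ones. Its log2 fold change of 0.056 (SE 0.0897, edgeR adjusted p = 0.790) had an interval of -0.144 to 0.257, which takes in the value measured for Vcan but not that for Tnr. Without 16-month replicate 1 the sign of the Bcan difference turned, to a log2 fold change of -0.042, and without replicate 2 it was 0.16.

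As a share of the summed lectican level per length, Bcan took 60.9% ± 0.534 at 6 months and 57.4% ± 1.66 at 16 months (SD, n = 3). Ncan took 35.6% ± 0.564 and 38.8% ± 0.940. Acan took 0.672% ± 0.0306 and 0.781% ± 0.0667. For each of these genes the samples of the ages did not overlap. Vcan took 2.85% ± 0.043 and 3.06% ± 0.653, and its samples overlapped. The sum itself overlapped between the ages, at 81.5 ± 3.15 and 89.7 ± 10.1. These shares were computed after the values of the genes had been seen and were not tested.

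The link proteins did not move together. Hapln2, which encodes the link protein Bral1 of the nodes of Ranvier in myelinated fibres, was the gene with the lower values at 16 months. It measured 35.9, 36.6 and 38.6 CPM at 6 months and 34.4, 28.8 and 29.7 CPM at 16 months. All 3 older samples lay below the younger ones, replicate 1 by a narrow margin. Its log2 fold change was -0.26 (SE 0.0741, interval -0.423 to -0.0922, edgeR adjusted p = 0.119), and without 16-month replicate 1 it was -0.34 with an adjusted p of 0.00293. Without replicate 2 it was -0.21.

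Hapln1 encodes cartilage link protein, the link protein best known from the nets. It measured 39.7, 39.6 and 42.5 CPM at 6 months and 37.4, 53.1 and 42.7 CPM at 16 months. A single older sample, replicate 2, lay clearly above all younger ones, and replicate 1 lay below them. On the log2 scale the fold change was 0.13 (SE 0.108, interval -0.113 to 0.370, edgeR adjusted p = 0.588), and without 16-month replicate 2 it was -0.019. Without replicate 1 it was 0.24.

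Hapln4, the link protein Bral2 that pairs with brevican in nets, measured 119.8, 114.0 and 111.6 CPM at 6 months and 137.0, 108.8 and 115.1 CPM at 16 months. The ages overlapped, with replicate 1 high and replicate 2 below all younger samples. This gave a log2 fold change of 0.063 (SE 0.0817, interval -0.119 to 0.245, edgeR adjusted p = 0.738), which was -0.041 without 16-month replicate 1 and 0.13 without replicate 2. Of the summed link protein level per length, Hapln2 took 30.1% ± 1.21 at 6 months and 25.5% ± 0.576 at 16 months, without overlap, while the sum was 51.8 ± 0.592 and 51.2 ± 3.92.

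Has3, a hyaluronan synthase that makes shorter chains than its relatives, was close to Acan in level. It measured 4.59, 3.93 and 4.51 CPM at 6 months and 5.61, 4.66 and 4.83 CPM at 16 months. The older samples were all higher, 2 of them only slightly. This gave a log2 fold change of 0.20 (SE 0.106, interval -0.0329 to 0.440, edgeR adjusted p = 0.357), which was 0.12 without 16-month replicate 1 and 0.25 without replicate 2. Reads in the stretch shared with Chtf8 may be missing from its count or may belong to Chtf8.

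Ptprz1 encodes a receptor phosphatase whose secreted, chondroitin sulfate bearing form, phosphacan, binds tenascin R and holds aggrecan at the cell surface. It had the most counts of the 10 genes, at 275.8, 271.0 and 270.2 CPM at 6 months and 289.7, 323.3 and 306.1 CPM at 16 months. The younger samples lay within 5.60 CPM of each other and all older samples lay above them. The log2 fold change was 0.17 (SE 0.0545, interval 0.0483 to 0.291, edgeR adjusted p = 0.154), 0.21 without 16-month replicate 1 and 0.13 without replicate 2.

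The samples of 16 months were more spread than those of 6 months in 9 of the 10 genes. The SD of log2 CPM went from 0.0499 to 0.205 for Bcan and from 0.0567 to 0.255 for Hapln1, beside a median over all tested genes of 0.0626 at 6 months and 0.127 at 16 months. Acan was the exception, with 0.0539 and 0.0413. The direction of the deviations went with base composition. The 7 genes with the higher GC content (47.7% to 60.7%), namely Acan, Bcan, Ncan, Hapln2, Hapln4, Tnr and Has3, lay above the mean of 16 months in replicate 1 and below it in replicate 2. The 3 genes with the lower GC content (39.8% to 44.5%), namely Vcan, Hapln1 and Ptprz1, did the opposite. The same opposite deviations were found in 64.3% of all tested genes with a GC content at or above the lowest of the first set, and in 85.8% of those at or below the highest of the second.

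**Figure D3:**
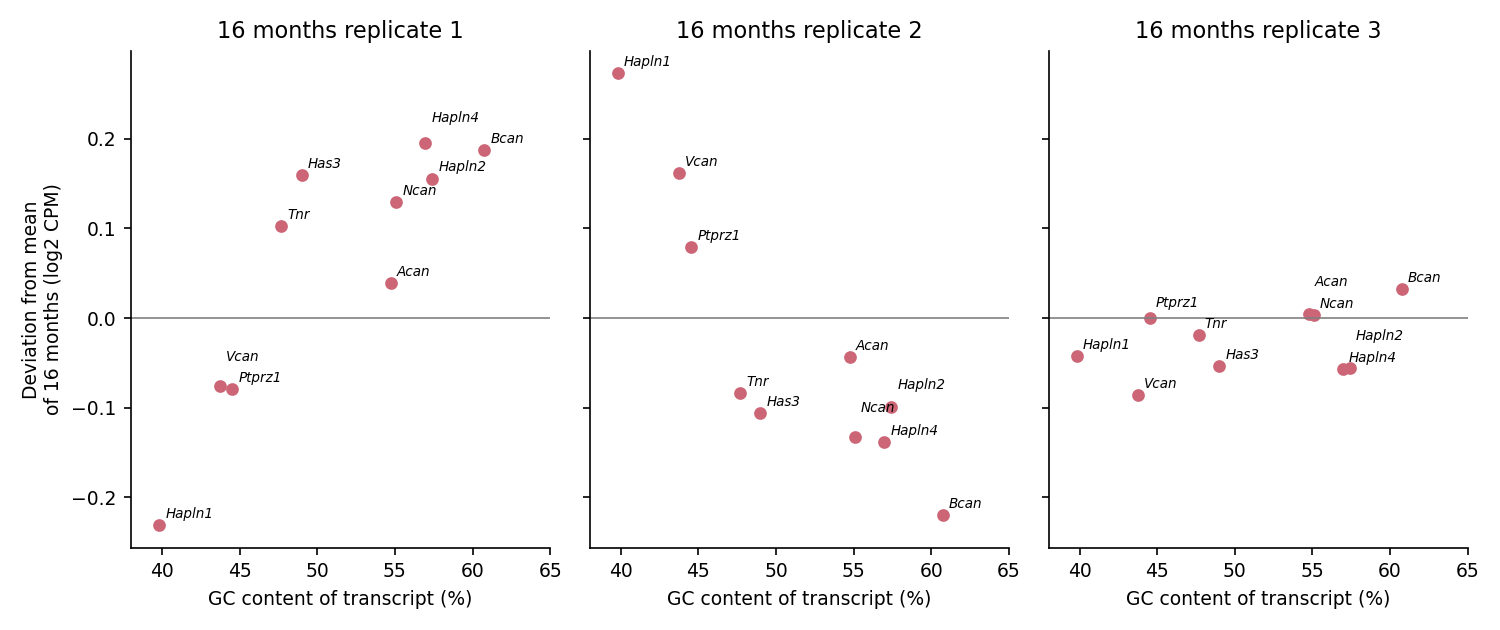
Deviation of each gene from its mean over the 3 samples of 16 months (log2 CPM) against the GC content of its longest transcript (%), 1 panel for each 16-month sample and 1 point for each gene. Genes rich in GC lie high in replicate 1 and low in replicate 2, Hapln1 (39.8% GC) does the reverse, and replicate 3 shows neither.

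With offsets that level GC content and transcript length within each sample, 7 of the 10 genes passed the edgeR test, as did 15.6% of all tested genes. Higher at 16 months were Acan (log2 0.31, adjusted p = 0.0262), Ncan (0.22, 0.000257), Vcan (0.25, 0.00317), Hapln1 (0.20, 0.0222), Tnr (0.30, 0.000906) and Ptprz1 (0.18, 0.000653). Hapln2 was lower (-0.26, adjusted p = 0.00215). Bcan (0.028), Hapln4 (0.038) and Has3 (0.19) did not pass. The fold changes of the 10 genes kept their direction under these offsets. Over all 15 alternatives, adjusted p ranged from 0.000211 to 0.209 for Tnr, from 0.0250 to 0.329 for Acan, from 5.67e-05 to 0.387 for Ncan and from 0.00166 to 0.508 for Vcan (edgeR, with DESeq2 as 1 of them). The ranges were 0.0149 to 0.880 for Hapln1, 0.00138 to 0.418 for Hapln2 and 0.000207 to 0.459 for Ptprz1, while Bcan, Hapln4 and Has3 were called under none. Without 16-month replicate 1, 5 of the 10 genes passed (Ncan, Vcan, Tnr and Ptprz1 higher, Hapln2 lower), beside 5.73% of all tested genes, and without replicate 2, 3 did (Acan, Ncan and Tnr, all higher), beside 12.7%. With any 1 of the other 4 samples left out, 0 of the 10 passed in edgeR. Of all tested genes, 0.318%, 0.328% and 0.277% then passed without 6-month replicates 1, 2 and 3, and 0.335% without 16-month replicate 3. An unadjusted p under 0.05 was found in 6, 5, 6 and 6 of the 10 genes in these edgeR fits, beside 12.5%, 10.6%, 10.7% and 11.5% of all tested genes, and with all samples in 6 of the 10, beside 17.4%. DESeq2 called 2 of the 10 with all samples, beside 3.03% of the genes it tested.

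**Figure D4:**
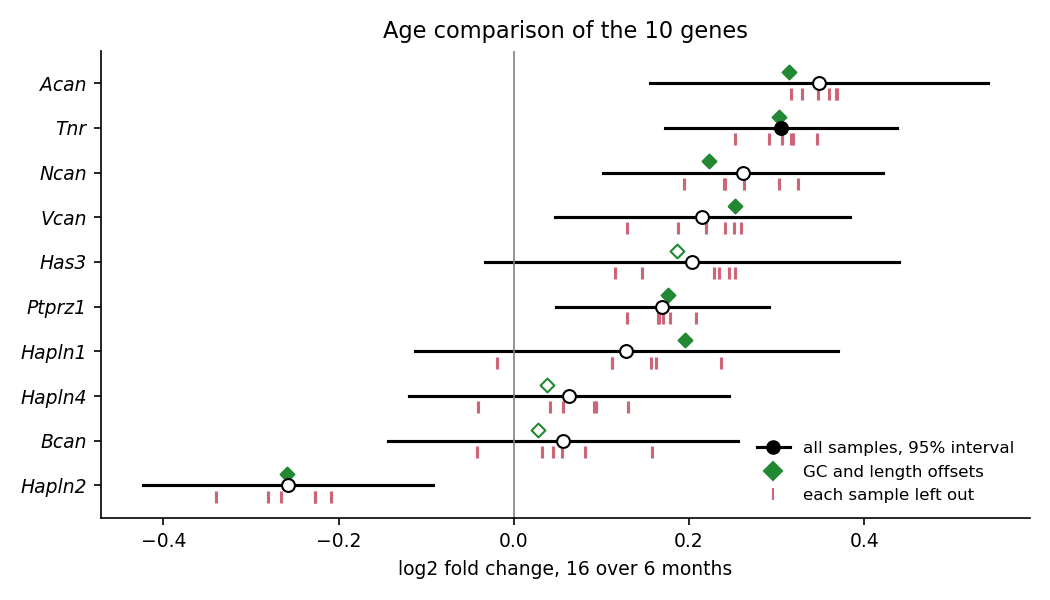
log2 fold change of 16 over 6 months for each gene. Circles with lines give the edgeR estimate and its 95% interval over all samples, green diamonds the estimate with GC and length offsets, red ticks the estimates with each sample left out, and filled symbols an adjusted p under 0.05. With all samples Tnr is the filled circle, with offsets 7 genes are filled, and ticks cross 0 for Hapln1, Hapln4 and Bcan.

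The other genes that build, modify, cut or read this matrix were examined in 4 lists with 71 genes, of which 69 were tested. Of these, 2 passed the edgeR test, both higher at 16 months, beside 1.67% of all tested genes in either direction. In the list of other matrix, link and hyaluronan genes, 0 of 22 passed, 15 were positive and 7 negative, and the median log2 fold change was 0.042. Nptx2, a pentraxin secreted at excitatory synapses on parvalbumin cells, had the smallest p (log2 0.35, SE 0.0851, 59.3 to 75.7 CPM, adjusted p = 0.0761 in edgeR). It was called under 7 of the 15 alternatives. Spock2, a brain proteoglycan also called testican 2, and the pentraxin Nptx1, which had the highest levels per length, had log2 fold changes of 0.13 and 0.17. The relatives of the 10 genes, named here after their values were seen, were low. Hapln3 measured 0.608 CPM at 6 months and 0.532 at 16 months, Has1 2.12 and 1.81 CPM, and Has2 0.415 and 0.423 CPM, with no call for any of the 3.

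Of the enzymes that build and sulfate chondroitin chains, 21 of 22 were tested and 1 passed. Chst11, a sulfotransferase of the chondroitin chain, rose from 62.6 to 75.0 CPM (log2 0.26, SE 0.0546, edgeR adjusted p = 0.0469). In this list 14 were positive and 7 negative, with a median of 0.088. The enzymes with the highest levels per length were B3gat3, which completes the linker that joins the chain to the protein (log2 -0.060), and the chain polymerizing factor Chpf (log2 0.19). Chst11 was called under 10 of the 15 alternatives.

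Of the proteases that cut lecticans and their inhibitors, 14 of 15 were tested and 0 passed, with 8 positive, 6 negative and a median of 0.047. Adamts9, an aggrecan and versican cleaving protease, had the smallest p (7.24 to 5.18 CPM, log2 -0.48, SE 0.105, edgeR adjusted p = 0.0562). It was called under 8 of the 15 alternatives. The inhibitors Timp2 and Timp3, at the highest levels per length, had log2 fold changes of 0.052 and 0.084.

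Of the receptors and binding partners, 1 of 12 passed. Plxna4, a plexin that transmits semaphorin signals, rose from 104.8 to 128.6 CPM (log2 0.30, SE 0.0541, edgeR adjusted p = 0.0274). In this list 11 of the 12 log2 fold changes were positive, with a median of 0.16. In 5 of the 12 the older samples all lay above the younger ones, which was so for 12.2% of all tested genes. Cntn1, the adhesion molecule contactin 1 that binds tenascin R and phosphacan, and Nrcam, at the highest levels per length, had log2 fold changes of 0.11 and 0.090 and were not called. As for Tnr, the calls of Chst11 and Plxna4 were lost without any 1 sample of 6 months and without replicate 3 of 16 months.

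**Figure D5:**
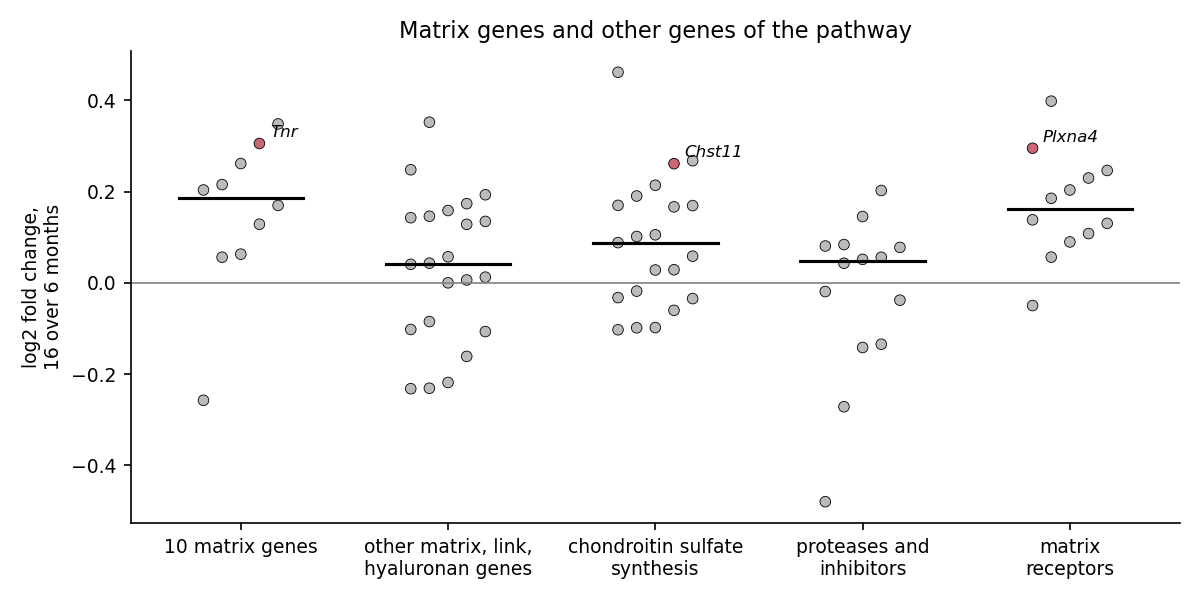
log2 fold change of 16 over 6 months for the 10 matrix genes and the tested genes of the 4 other lists, 1 point for each gene, with bars at the median of each list and red points for an adjusted p under 0.05. Medians are 0.19, 0.042, 0.088, 0.047 and 0.16 from left to right, and Tnr, Chst11 and Plxna4 are the red points.

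Pvalb, which encodes parvalbumin, the calcium buffer of the interneurons that most cortical nets surround, fell from 42.6 to 18.4 CPM (log2 -1.21, SE 0.0585, edgeR adjusted p = 1.49e-05). The other 8 of the 9 markers of these interneurons did not pass. The median of the list was 0.0022, with 5 positive and 4 negative. Gad1 (log2 0.15) was higher without overlap, and Tac1 (log2 -0.225) overlapped. The summed level per length was 431.5 to 444.2 at 6 months and 411.9 to 442.5 at 16 months. Most of it was Cplx1, at means of 272.3 and 279.6, against 40.9 and 17.7 for Pvalb. The sum therefore cannot tell whether these cells changed in number. Gad1, Tac1 and Cplx1 are named here after their values were seen. Of the 10 matrix genes, 0 were called in the direction of Pvalb with all samples by edgeR without offsets or by DESeq2. Hapln2 was called so in edgeR with the GC and length offsets, alone or with the replicate number as a block. It was also called so without 16-month replicate 1.

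Markers of other cells were also compared between the ages. Over all tested genes, 1.67% were called by edgeR in either direction and 12.2% were higher at 16 months without overlap. The summed level per length of the astrocyte markers was 516.7 to 542.0 at 6 months and 539.0 to 597.9 at 16 months, and that of the oligodendrocyte precursor markers was 72.6 to 77.6 and 76.9 to 99.4. Both ranges overlapped between the ages. The median log2 fold change of the astrocyte markers was 0.18, beside 0.19 for the matrix genes. Of the 6, 4 were higher at 16 months without overlap but were not called, namely Aldh1l1 (0.25), Gja1 (0.22), Slc1a3 (0.20) and Slc1a2 (0.15). Aqp4 overlapped between the ages (-0.031). The astrocyte marker that was called, Gfap, was lower (-0.47). The median of the precursor markers was 0.24, with 5 of 6 positive, 3 of 6 higher without overlap and 1 called higher, Gpr17 (0.64). These astrocyte and precursor markers are named after their values were seen. Mature oligodendrocyte markers summed to 1069 to 1081 and 1084 to 1101, without overlap, with Aspa called lower (log2 -0.57) and 0 of 8 called higher. The sum of the endothelial markers was 34.5 to 34.9 at 6 months and narrowly lower, 32.8 to 34.2, at 16 months. Of these 6, 4 were negative and 2 positive, 3 were lower without overlap and 1 was higher without overlap. Kdr was called lower (log2 -0.39). Lower without overlap were 11.5% of all tested genes. Excitatory neuron markers (676.0 to 711.1 and 702.4 to 802.3) and microglial markers (123.8 to 126.8 and 119.7 to 129.3) overlapped.

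The summed levels per length of markers of regions that border the cortex did not overlap between the ages. The share of all tested genes called in the same edgeR fit was 1.67%. Thalamic markers summed to 12.6 to 13.1 at 6 months and 17.9 to 18.7 at 16 months, and 5 of 6 were called higher, Shox2 (log2 4.06), Prkcd (0.91), Tcf7l2 (0.44), Calb2 (0.37) and Plekhg1 (0.32). The fold change of Shox2 rests on 4 counts in each 6-month sample, close to the floor of 3 counts. Dentate gyrus markers summed to 36.5 to 37.5 and 43.7 to 49.1, and 3 of 5 were called higher, Dsp (1.26), Lct (1.12) and C1ql2 (0.86). Most of this sum was Calb1, at means of 28.3 and 32.5, which overlapped between the ages and was not called. Calb1 is named after its values were seen. Choroid plexus markers summed to 8.88 to 9.86 and 15.8 to 17.8, with Ttr called (1.00). Most of this sum was Ttr, so it does not describe the list as a whole. Clic6 (0.395) was higher without overlap but was not called. Folr1 (0.374), Kcnj13 (-0.0319) and Kl (-0.0212) overlapped between the ages. These uncalled choroid plexus markers are named after their values were seen. Striatal markers summed to 132.1 to 134.9 and 137.2 to 147.3, with 0 of 6 called. The part of these shifts in the results for the matrix genes was not tested.

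The tested genes most like Tnr over the 6 samples, by Pearson's r of log2 CPM, were Ttyh1, Slc29a4 and Epn3 (r = 0.997 each), and C1ql2 and Slc24a3 (r = 0.996 each). They are the closest of all tested genes to a pattern set by the 6 samples, age and base composition included. C1ql2 is also one of the dentate gyrus markers above. Its log2 fold change of 0.86 and those of Slc29a4 (0.77) and Slc24a3 (0.28) passed the edgeR test, while those of Epn3 (0.74) and Ttyh1 (0.14) did not.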

How the data were processed

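Polyadenylated RNA of cortical hemispheres (TruSeq, paired-end) was measured in 3 samples of 6 and 3 of 16 months. The authors trimmed reads with fastq-mcf, aligned them with STAR in 2-pass mode to mm10 and counted them per Ensembl gene with HTSeq. These counts were deposited as whole numbers without normalization. The submitters' processing notes name CASAVA 1.8.2, STAR 2.3.0e and featureCounts 1.5.0-p1, whereas the closing lines of the tables are those of HTSeq. The annotation release and strand setting are not given in the sources used here. HTSeq leaves out reads that fit several genes or places. Between 70.8% and 76.5% of uniquely aligned reads lay on a gene.

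Of 38355 identifiers, 36602 matched GENCODE M21 (GRCm38), the source of positions, names, exon lengths and GC content, and 1753 did not. The listed Tmem2 was matched through its current symbol Cemip2 in RefSeq. Lines with no gene name were left out. The ages were compared by the quasi-likelihood test of edgeR 4.0.16 under R 4.3.3 (filterByExpr, TMM, no covariate, Benjamini-Hochberg adjustment over 17120 genes at 0.05). The common biological coefficient of variation was 6.4%. SEs on the log2 scale come from the fold change and its F statistic, and intervals use 9.896 degrees of freedom. Log2 CPM used a prior count of 2. Near copies were searched with blastn 2.17.0 (97% identity over 100 bases), and the matches, Gm38039 for Tnr and Chtf8 for Has3, were the overlapping genes. No 2 samples of the same age agreed within sampling noise. The floor covers counting error only, since reads are not independent molecules.

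The members and lists were chosen with earlier results of these data known. Named are the 10 genes; of each pathway list the called genes, the gene with the smallest p and the 2 highest per length; Pvalb; called markers of lists whose summed level did not overlap; and the 5 genes most like the member with the smallest p. Relatives, some cell type and region markers and the shares within protein families were added after their values were seen. Alternatives were DESeq2 size factors, upper quartile normalization, no filter or 10 counts in every sample, a robust fit, DESeq2 1.42.0, the replicate number as a block, GC and length offsets (20 bins, values for 98.7% of tested genes) alone and with the block, and each sample left out. The script was tested on simulated data. Figures were drawn with matplotlib 3.10.9.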

Additional observations from a re-analysis of the deposited data

How the results depend on the processing

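DESeq2 size factors, upper quartile normalization, at least 10 counts in every sample and the robust fit kept the called matrix gene (Tnr), 2 calls in the other lists and a total of calls within 1.5 times of 286. The 2 calls with upper quartile normalization were Plxna4 and Adamts9. Without the filter, calls were 2 for the matrix genes, 5 for the other lists and 648 for all genes. With DESeq2's Wald test they were 2, 7 and 471, and with the GC and length offsets 7, 20 and 2676. With the offsets, 67.4% of all calls were higher at 16 months, against 46.9% without.

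The labels used here do not state whether same-numbered samples of the 2 ages were handled together. The correlation of their deviations from their age's mean was 0.180, 0.0958 and 0.0351 across genes. The correlation of the deviations with GC content had the same sign at 6 and 16 months for each number (0.160 and 0.588, -0.130 and -0.582, -0.0230 and -0.0545). A batch shared by number was not tested. With the replicate block calls were 2 (Tnr and Ncan), 7 and 783, and with the offsets and the replicate block 7, 26 and 3621.

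With each sample left out, calls ranged from 0 to 5 for the matrix genes, from 0 to 18 for the other lists and from 48 to 2211 for all genes. The log2 fold change of Tnr then ranged from 0.25 to 0.35, that of Bcan from -0.042 to 0.16, that of Hapln1 from -0.019 to 0.24 and that of Hapln4 from -0.041 to 0.13. The cause of these differences was not tested. The other 7 genes kept their direction under every alternative, and Tnr was called under 11 of 15. DESeq2 size factors left the 7 genes without overlap and the order of levels as they were. With 3 samples an age, SEs of 0.0545 to 0.108 on the log2 scale limit what could be detected, and Acan and Has3 rest on the fewest counts.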
